A study of Mus musculus with 4 samples.

Results

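The T and B lymphocyte nuclei of the liver were taken as the nuclei that the authors' deposited annotation calls CD45+ 2 or CD45+ 3. They numbered 72 of 5193 nuclei, with 47 in CD45+ 2 and 25 in CD45+ 3. The nuclei came from 3 HNKO mice and 3 WT littermates, all female, 8 to 12 weeks old at the start and fed a purified diet (PD) for 6 weeks. Per the labels the knockouts were C57BL6/BomTac Alb-Cre Nampt cKO and the controls C57BL6/BomTac Nampt cKO, so both genotypes carried the floxed Nampt gene and differed by Cre. Because the albumin promoter drives Cre in hepatocytes, lymphocytes are not its intended target. Each mouse was marked by its own hashtag, an antibody with an oligonucleotide tag, and the nuclei of the 6 mice were pooled before sequencing.

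T cells recognise antigen through a receptor whose chains signal with the CD3 proteins and the kinases Lck and Zap70. B cells carry a membrane immunoglobulin that signals through Cd79a, Cd79b, Syk, Btk and Blnk, and they present antigen on MHC class II. The transcription factors Bcl11b, Tcf7 and Lef1 hold T cell identity, and Ebf1 and Pax5 hold B cell identity. Liver also holds natural killer (NK) cells and other innate lymphocytes, which share many genes with T cells.

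WT mice 1, 2 and 3 contributed 5, 6 and 2 CD45+ 2 nuclei and 5, 5 and 1 CD45+ 3 nuclei. HNKO mice 1, 2 and 3 contributed 11, 9 and 14 CD45+ 2 nuclei and 5, 3 and 6 CD45+ 3 nuclei. Mice are numbered by the order of their hashtag names. WT mouse 3 was therefore represented by 3 lymphocyte nuclei in all. The summed counts were 197469 unique molecular identifiers (UMIs) for CD45+ 2 and 87038 for CD45+ 3. The median was 3279 UMIs per nucleus in CD45+ 2 and 2728 in CD45+ 3, against 4484 in hepatocyte nuclei, and the lowest was 1804 and 1926. After thinning every nucleus to 1300 UMIs, both clusters had nearly the same number of genes detected per nucleus, with medians of 827 and 828 against 797 in all other nuclei. Levels below are counts per 1000000 summed UMIs (CPM). Folds are log2 ratios of (CPM + 10), which understate differences of low genes. Because the authors clustered the nuclei on these same genes, levels of the clusters are a description and carry no test.

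**Figure D1:**
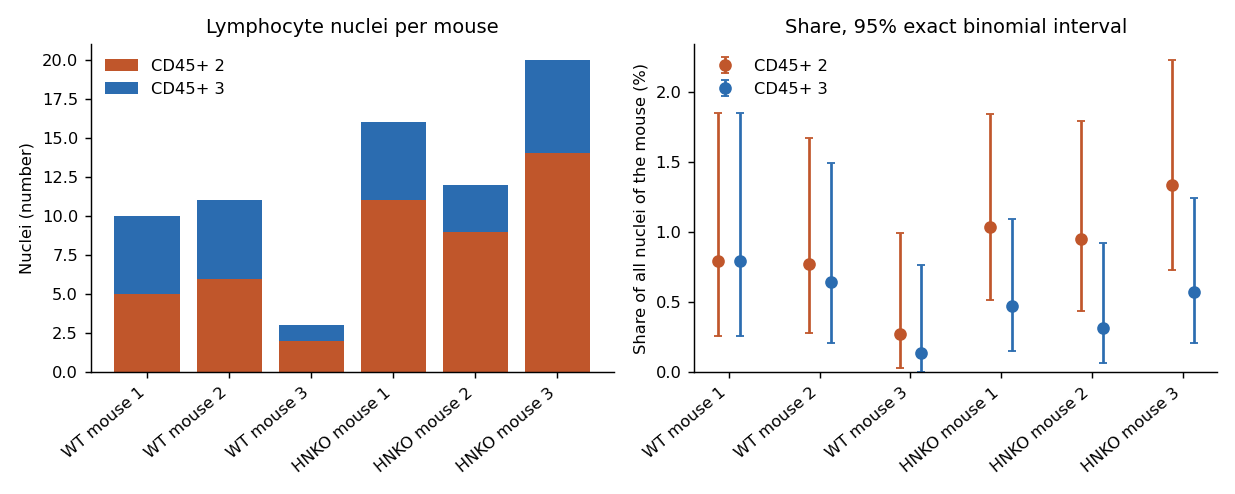
Left, bars of the number of CD45+ 2 (orange) and CD45+ 3 (blue) nuclei in each mouse. Right, points show the share of all nuclei of the mouse (%) with its 95% exact binomial interval, which covers counting error only. The CD45+ 2 share lay at 0.276% to 0.795% in the WT and at 0.947% to 1.33% in the HNKO animals.

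The fixed markers separated the clusters. Skap1, an adaptor of T cell receptor signalling (chromosome 11, 96464593 to 96759130, GRCm38), had 320 UMIs in CD45+ 2 and 1 UMI in CD45+ 3. It was detected in 95.7% of CD45+ 2 nuclei and in 2.01% of all nuclei outside both clusters. Its level in CD45+ 2 was 1852, 3097 and 1677 CPM in WT mice 1 to 3, and 1505, 1282 and 1509 CPM in HNKO mice 1 to 3. In CD45+ 3 it was 0 in every mouse except HNKO mouse 2, with 147 CPM from a single UMI, so the ranges of the clusters did not overlap.

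Bcl11b (chromosome 12, 107910403 to 108003602), a transcription factor required for T cell commitment, had 54 UMIs in 44.7% of CD45+ 2 nuclei and none in CD45+ 3. It was 436, 740 and 0 CPM in CD45+ 2 nuclei of WT mice 1 to 3 and 169, 180 and 305 CPM in those of HNKO mice 1 to 3. The 0 of WT mouse 3 came from 2 nuclei.

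Ebf1 (chromosome 11, 44617317 to 45008091), which specifies the B cell lineage, had 375 UMIs in CD45+ 3 and none in CD45+ 2. Its level in CD45+ 3 was 7956, 3917 and 2009 CPM in WT mice 1 to 3 and 1884, 3667 and 5197 CPM in HNKO mice 1 to 3. Taking 3 counts over the whole CD45+ 2 cluster as the floor, Ebf1 was at least 284-fold higher in CD45+ 3. All other nuclei together stood at 6.86 CPM.

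Pax5 (chromosome 4, 44524757 to 44710487), which maintains B cell identity, had 70 UMIs in 88% of CD45+ 3 nuclei and none in CD45+ 2, and was at least 52.9-fold higher. It was 859, 443 and 0 CPM in WT mice and 362, 1760 and 1376 CPM in HNKO mice. Bank1 (chromosome 3, 136053363 to 136326066), a B cell scaffold protein, was 1140 to 6748 CPM across the mice in CD45+ 3 and 0 to 67.6 CPM in CD45+ 2. Unlike Ebf1 and Pax5 it was also abundant in Kupffer nuclei, at 1685 CPM.

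**Figure D2:**
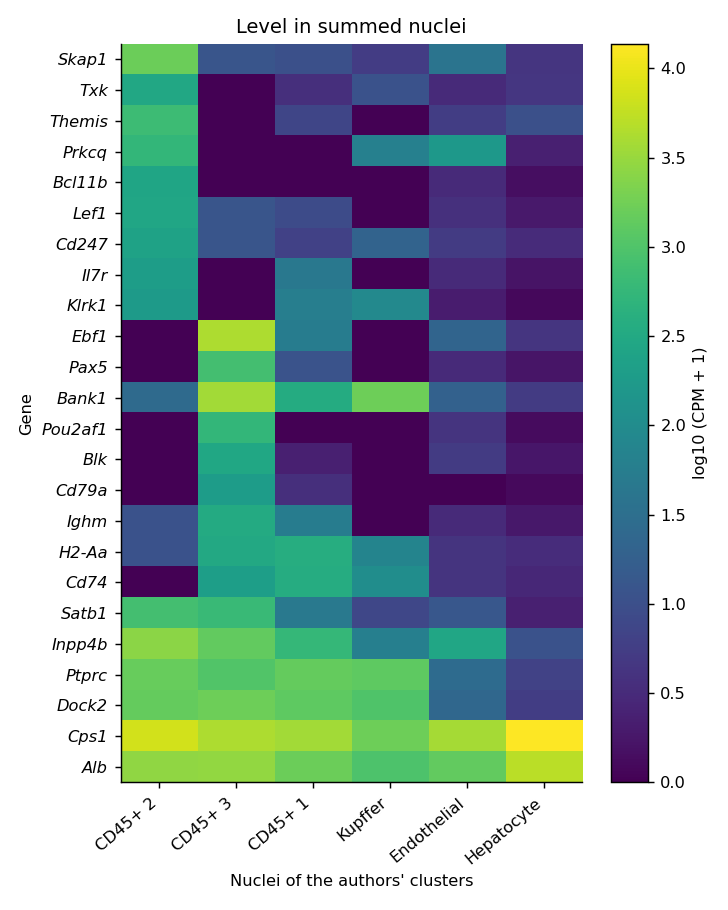
Heat map of log10 (CPM + 1) for 24 genes (rows) in the summed nuclei of CD45+ 2, CD45+ 3, CD45+ 1, Kupffer, endothelial and hepatocyte clusters (columns). Skap1 to Klrk1 are brightest in CD45+ 2, Ebf1 to Cd79a in CD45+ 3, and Ptprc and Dock2 are at like levels in all CD45+ and Kupffer columns.

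The markers are also described nucleus by nucleus, which is no separate support because the nuclei were clustered on these same genes. Of the 14 T cell markers, CD45+ 2 nuclei held a UMI of 7 at the median (range 1 to 12) and CD45+ 3 nuclei of 0 (range 0 to 1). Of the 14 B cell markers, CD45+ 3 nuclei held 8 at the median (range 4 to 13) and CD45+ 2 nuclei 1 (range 0 to 3). At least 3 T cell markers were found in 45 of 47 CD45+ 2 nuclei, in 0 of 25 CD45+ 3 nuclei and in 26 of 4410 hepatocyte nuclei, or 0.590%. At least 3 B cell markers were found in 25 of 25 CD45+ 3 nuclei, but also in 3 CD45+ 2 nuclei, in 26 of 105 CD45+ 1 nuclei (24.8%) and in 13.8% of Kupffer, 11.8% of cholangiocyte and 8.37% of hepatocyte nuclei. Of that list, Bach2 and Ralgps2 stood at 544 and 105 CPM in hepatocytes. No CD45+ 3 nucleus held 3 markers of each list, and 3 CD45+ 2 nuclei did. The labels T-like and B-like describe these marker genes in CD45+ 2 and CD45+ 3. Outside the clusters, 2 of 105 CD45+ 1 nuclei and 11 of 245 endothelial nuclei held at least 3 T cell markers.

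**Figure D3:**
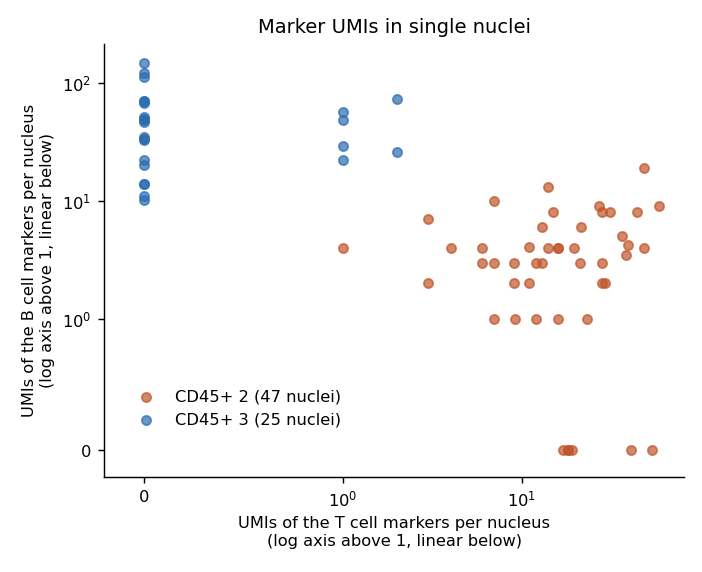
UMIs of the 14 B cell markers (vertical) against those of the 14 T cell markers (horizontal) in each of the 72 nuclei, on axes that are logarithmic above 1 and linear below. CD45+ 2 nuclei (orange) had 1 to 58 T cell marker UMIs, CD45+ 3 nuclei (blue) had 0 to 2, and B cell marker UMIs were 10.2 to 146 in CD45+ 3 and 0 to 19 in CD45+ 2.

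Across all 21682 genes with at least 5 UMIs in the data, 5.94% were at least 2-fold higher and 3.08% at least 2-fold lower in CD45+ 2 than in all nuclei outside both clusters. In CD45+ 3 these shares were 9.05% and 8.27%. CD45+ 2 was at least 2-fold above CD45+ 3 in 11.2% of genes and at least 2-fold below in 9.28%. These shares rest on few UMIs per gene and serve as the background for the lists below. The median log2 ratio over all these genes was -0.04 for CD45+ 2, -0.07 for CD45+ 3 and 0.00 between the clusters.

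Among the 12 genes that stood highest in CD45+ 2 over all other nuclei were Gm2682, Skap1, Cd226, Inpp4b, Satb1, Ptpn22, Kcnq5, Ms4a4b, Dock2, Themis and Bcl2. Gm2682, a long intergenic RNA on chromosome 15 (60120540 to 60187408), led with 2032 CPM against 4.68 CPM, a log2 ratio of 7.12. It was detected in 89.4% of CD45+ 2 nuclei and in none of the 25 CD45+ 3 nuclei, which allows a level of up to 34.5 CPM there. Per mouse it was 2505, 3299 and 1537 CPM in WT and 2232, 1513 and 1769 CPM in HNKO CD45+ 2 nuclei, so every mouse was far above the CD45+ 3 cluster.

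Cd226, an activating receptor of T and NK cells, was 1129 CPM in CD45+ 2 and at 0 in CD45+ 3. Themis, a T cell receptor signalling protein needed for thymic selection, was 545, 673 and 279 CPM in WT mice and 981, 410 and 678 CPM in HNKO mice, with no UMI in CD45+ 3. Both genes marked CD45+ 2 in each of the 6 mice.

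Ranked directly against CD45+ 3, the leading genes of CD45+ 2 included Gm2682, Cd226, Skap1, Themis, Prkcq, Gm36723, Btbd11, Prkch and Txk. Prkcq, the protein kinase C theta of the T cell synapse, was 542 CPM in CD45+ 2 and 0 in CD45+ 3, at least 15.7-fold apart. Txk, a Tec-family kinase, was 299 CPM and 0 CPM, at least 8.67-fold apart. Gm36723 and Btbd11 were not particular to these nuclei, since CD45+ 1 stood at 506 CPM for Gm36723 and Kupffer nuclei at 1025 CPM for Btbd11.

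The 12 genes that stood highest in CD45+ 3 over all other nuclei were Ebf1, Bank1, Btla, Aff3, Pax5, Ikzf3, Pou2af1, Satb1, Syk, Dock2, Gm30211 and Arhgap15. Pou2af1, a coactivator of octamer-binding factors in B cells, was 551 CPM in CD45+ 3, 0.582 CPM in all other nuclei and at 0 in CD45+ 2. It was present in each mouse, at 286, 369.5 and 502 CPM in WT and 326, 1467 and 917 CPM in HNKO. Btla, an inhibitory receptor, was 1149 CPM in CD45+ 3 and 81.0 CPM in CD45+ 2. Aff3, a nuclear protein of lymphoid cells, was detected in 100% of CD45+ 3 nuclei and 29.8% of CD45+ 2 nuclei.

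Ranked directly against CD45+ 2, CD45+ 3 was led by Ebf1, Bank1, Pax5, Wdfy4, Pou2af1, Gm30211, Marchf1, Gm15987, Mef2c and Cd55. All 10 were lower in CD45+ 2 than in CD45+ 3 in the summed counts by log2 differences of 5.23 to 8.75. Wdfy4 had 51 UMIs in CD45+ 3 and none in CD45+ 2, but CD45+ 1 stood higher still, at 1604 CPM against 586 CPM. Marchf1, a ligase that removes MHC class II from the cell surface, was 1536 CPM in CD45+ 3, 25.4 CPM in CD45+ 2 and 1210 CPM in Kupffer nuclei. Gm15987 is annotated as an antisense RNA, and whether counting used strand is not given in the sources used here, so its reads and those of its partner may not be separable.

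**Figure D4:**
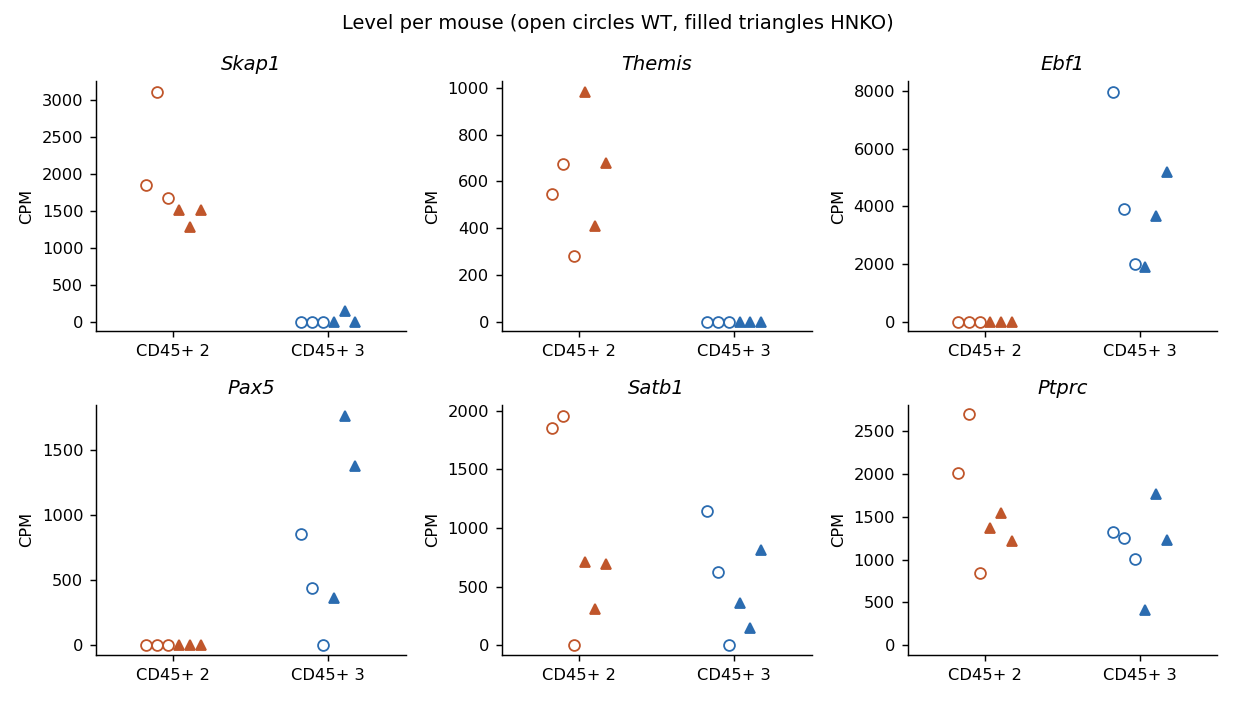
CPM of 6 genes in the CD45+ 2 (orange) and CD45+ 3 (blue) nuclei of each mouse, open circles for WT and filled triangles for HNKO. Skap1 and Themis are high in CD45+ 2 only, Ebf1 and Pax5 in CD45+ 3 only apart from a 0 in WT mouse 3 for Pax5, and the ranges of Satb1 and Ptprc overlap between the clusters.

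Satb1 and Dock2 led both clusters. Satb1, a chromatin organiser of lymphoid cells, was 800 CPM in CD45+ 2 and 638 CPM in CD45+ 3 against 2.36 CPM elsewhere, and the mice overlapped (0 to 1952 CPM and 0 to 1145 CPM). Dock2, the Rac activator of leukocyte migration, was 1464 and 1689 CPM. Unlike Satb1, which was 46.4 CPM in CD45+ 1 and 6.68 CPM in Kupffer nuclei, Dock2 was also abundant there, at 1267 and 1008 CPM. Of 16 pan-leukocyte genes, 15 were at least 2-fold higher in CD45+ 2 and 14 in CD45+ 3 than in all other nuclei, with median log2 ratios of 3.23 and 3.82. Only 2 were 2-fold higher and 2 were 2-fold lower in CD45+ 2 than in CD45+ 3. Ptprc, which encodes CD45, was 838 to 2693 CPM in CD45+ 2 and 417 to 1760 CPM in CD45+ 3.

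Genes of the T cell receptor complex were all present in CD45+ 2 and sparse. All 11 members had a UMI and all 11 were at least 2-fold above the other nuclei (median log2 ratio 2.58). Cd3e had 9.5 UMIs in 14.9% of CD45+ 2 nuclei against 0.23% of other nuclei, Cd3g had 8 UMIs and Trac had 7, with no UMI of the 3 genes in CD45+ 3. The counts are too few to place them between clusters with any precision: 3 counts in CD45+ 3 would already be 34.5 CPM, and Cd3e stood at 48.1 CPM in CD45+ 2. Cd247, the zeta chain, was the best detected member, at 243 CPM and in 61.7% of nuclei. Levels were summed for the list in each mouse and ranged from 279 to 1750 CPM.

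Of 14 genes of T cell receptor signalling, 14 were at least 2-fold above other nuclei in CD45+ 2 (median log2 ratio 4.06) and 4 in CD45+ 3. Against CD45+ 3, 13 of 14 were at least 2-fold higher in CD45+ 2. Lcp2, the adaptor SLP-76, was 162 CPM and 0 CPM, and Lck was 122 and 23.0 CPM. Grap2, an adaptor that binds SLP-76, was the exception, at 370 and 218 CPM. Of 8 T cell transcription factors, 7 were higher in CD45+ 2 than elsewhere, among them Lef1 (284 CPM) and Tcf7 (106 CPM). Tox did not separate lymphocytes, with 1565 CPM in CD45+ 2, 666 CPM in CD45+ 3 and 1742 CPM in hepatocytes.

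Subset genes were close to the limit of detection. Cd4 was found in 1 of 47 CD45+ 2 nuclei and Cd8a or Cd8b1 in 2. Foxp3, the factor of regulatory T cells, was at 0 in both clusters, which allows up to 15.2 CPM in CD45+ 2. Il2ra had 7 UMIs and Trdc, the constant gene of the delta chain, had 2. Of the 11 subset genes found in the table, 5 were at least 2-fold above other nuclei in CD45+ 2 and none in CD45+ 3. Sox13 and Zbtb16 were not among the 5, and hepatocyte nuclei held 15.6 and 1595 CPM of them.

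NK cell genes were present inside CD45+ 2. Of 12 NK cell and cytotoxic genes, 9 had a UMI in CD45+ 2 and 1 in CD45+ 3. Klrk1, which encodes the activating receptor NKG2D, was detected in 38.3% of CD45+ 2 nuclei, in none of 25 CD45+ 3 nuclei and in 0.78% of all other nuclei. It was 599, 471 and 0 CPM in WT mice 1 to 3 and 118, 103 and 102 CPM in HNKO mice 1 to 3. Klre1 had 13 UMIs, Klrd1 14 and Ncr1, which encodes NKp46, 8 in 10.6% of nuclei. Eomes, Gzma and Prf1 were at 0, and Tbx21, the factor T-bet, was in 25.5% of nuclei.

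These genes and T cell genes were found in the same nuclei in part. A UMI of an NK receptor gene (Ncr1, Klrb1c, Klrd1, Klrk1, Klre1 or Nkg7) was present in 27 of 47 CD45+ 2 nuclei, and 22 of the 27 also held Bcl11b, Themis, a CD3 gene or a T cell receptor constant gene. A further 18 nuclei held the T cell genes without an NK receptor gene, 5 held an NK receptor gene without them, and 2 held neither. Counting only CD3 and T cell receptor constant genes, 14 of the 27 held such a gene and 13 did not. Of all 47 CD45+ 2 nuclei, 23 held such a gene. Ncr1 or Klre1 were found in 9 nuclei from 5 mice, and 3 of the 9 held Bcl11b or Themis. CD45+ 2 is therefore described as T-like with a share of nuclei that carry NK receptor transcripts. At this depth a missing UMI does not show that a gene was not expressed.

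Of 16 B cell receptor and coreceptor genes, 14 were at least 2-fold above other nuclei in CD45+ 3 (median log2 ratio 3.40) and 1 in CD45+ 2. Cd79a, a signalling chain of the receptor, was in 48% of CD45+ 3 nuclei and in 0.21% of other nuclei, with no UMI in CD45+ 2. It was 401, 148 and 0 CPM in WT mice and 36.2, 587 and 153 CPM in HNKO mice. Ighm, the IgM heavy chain, was in 15 of 25 nuclei, Ighd in 15 and both in 11. Igkc was in 5 nuclei, a lambda constant gene in 8 and both kinds of light chain in 2. The lambda genes are near-identical copies, so reads may be split between them. Cr2 and Fcer2a, receptors that differ between marginal zone and follicular B cells, were in 6 nuclei each and together in 1.

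All 12 genes of B cell receptor signalling had a UMI in CD45+ 3 and 11 were at least 2-fold above other nuclei, with a median log2 ratio of 3.67. Blk was 287 CPM and Btk 172 CPM, both at 0 in CD45+ 2. Syk, the proximal kinase of the receptor, was 873 CPM in CD45+ 3, 15.2 CPM in CD45+ 2 and 481 CPM in Kupffer nuclei. Pik3ap1, an adaptor of the receptor pathway, was the member that did not stand out, at 678 CPM in CD45+ 3 and 987 CPM in hepatocytes. Of 11 B cell transcription factors, 9 were higher in CD45+ 3 (median log2 ratio 5.03), including Bcl11a at 471 CPM and Mef2c at 1247 CPM. Ikzf3 was high in both clusters, at 354 and 724 CPM. Irf8 was at 0 in both and in 0.117% of all other nuclei.

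Genes of antibody secretion and class switching were at or near 0. Of 6 switched constant genes, Igha had 2 UMIs in 1 CD45+ 3 nucleus, against UMIs in 0.898% of all other nuclei, and the remaining genes had none. Of 8 plasma cell genes, 1 was at least 2-fold higher in CD45+ 3 than elsewhere, from 1 UMI of Irf4, and Jchain had 1 UMI. Proliferation genes were equally sparse, with Mki67 or Top2a in 1 of 47 CD45+ 2 nuclei and 0 of 25 CD45+ 3 nuclei. A count of 0 allows a share of nuclei with such a UMI of up to 12%, and does not limit the share that expressed the genes. Of 10 proliferation genes, 0 and 1 were 2-fold higher in CD45+ 2 and CD45+ 3 than elsewhere.

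MHC class II genes belonged to CD45+ 3 among the lymphocytes. Of 9 genes of class II presentation, 7 were at least 2-fold above other nuclei in CD45+ 3 (median log2 ratio 3.52) and 1 in CD45+ 2. H2-Aa was in 60% of CD45+ 3 nuclei and Ciita, the class II transactivator, in 36%. Cd74, the invariant chain, had 18 UMIs in CD45+ 3 and none in CD45+ 2. It was 401, 369.5 and 0 CPM in WT mice and 36.2, 440 and 102 CPM in HNKO mice. The summed level of the 9 genes, 1241 CPM, lay between that of CD45+ 1 (1920 CPM) and that of Kupffer nuclei (421 CPM).

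Some receptors for migration and survival differed between the clusters. Of 16 trafficking genes, 8 were at least 2-fold above other nuclei in CD45+ 2 and 12 in CD45+ 3. The shares of all genes tested were 5.94% and 9.05%. Between the clusters, CD45+ 2 was at least 2-fold higher in 4 of the 16 and at least 2-fold lower in 6. For all genes tested these shares were 11.2% and 9.28%. Only 9 of the 16 exceeded the floor of 3 counts in either cluster, so some of the genes counted lie at or below it. Cxcr5, which guides B cells to follicles, was in 6 of 25 CD45+ 3 nuclei and 0 of 47 CD45+ 2 nuclei. Cxcr6, a receptor of liver-resident lymphocytes, was in 0 CD45+ 3 nuclei and in 11 CD45+ 2 nuclei from 5 mice, and Cd69 had 7 UMIs in CD45+ 2 and none in CD45+ 3. Of 11 cytokine and survival receptor genes, 7 and 6 were higher than elsewhere. Between the clusters, 4 of the 11 were at least 2-fold higher and 1 at least 2-fold lower in CD45+ 2. Il7r (203 CPM), Il2rb (167 CPM) and Il18r1 (132 CPM) had no UMI in CD45+ 3. Il7r was found in each of the 6 mice, at 381, 269 and 279 CPM in WT and 271, 154 and 84.8 CPM in HNKO. Bcl2, an inhibitor of apoptosis, was high in both, at 1555 and 689 CPM.

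The promoters of these genes were searched for the binding letters of factors that the clusters expressed, to show sequence beside the values. RefSeq windows of 250 bases before the start (GRCm38.p6) were found for 19 of 27 leading or marker genes of CD45+ 2 and for 22 of 28 of CD45+ 3. The EBF palindrome was in 1 of the 22 (Cd22) and in 0 of the 19, against 0.914% of all genes. The octamer ATGCAAAT was in 1 of the 22 (Blnk) and in 0 of the 19, against 1.81%. The ETS letters ACTTCCTG were in 5 of the 19 and 5 of the 22, against 3.13%, with Satb1 counted in both, and Ets1 was 603 CPM in CD45+ 2 and 873 CPM in CD45+ 3. CTTTGAT, the letters of Tcf7 and Lef1, were in 0 and 1 against 3.72%, and the RUNX letters TGTGGTTT in 1 and 1 against 1.78%. Both strands were searched. These are matches of letters and no binding was measured. The stretches below are shown because they belong to genes of the T or B cell receptor complexes, coreceptors and their signalling, on the gene's strand, with the match in capitals.
Cd22, EBF, chr7:30879038-30879107, minus strand: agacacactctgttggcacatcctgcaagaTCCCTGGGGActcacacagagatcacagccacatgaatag
Blnk, octamer, chr19:40994314-40994381, minus strand: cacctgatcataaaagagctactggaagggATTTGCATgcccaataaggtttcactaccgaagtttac
Cd79a, ETS, chr7:24897411-24897478, plus strand: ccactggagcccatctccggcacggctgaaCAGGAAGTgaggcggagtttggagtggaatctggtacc
Cd3e, ETS, chr9:45009612-45009659, minus strand: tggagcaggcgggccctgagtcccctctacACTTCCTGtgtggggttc
Lck, ETS, chr4:129573642-129573682, minus strand: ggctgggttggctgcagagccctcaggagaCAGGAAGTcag
Cd247, ETS, chr1:165788593-165788660, plus strand: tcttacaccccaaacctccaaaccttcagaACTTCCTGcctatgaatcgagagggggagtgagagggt

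Transcripts of other liver cells were measured in the same nuclei. The 14 hepatocyte markers made up 1.47% of UMIs in CD45+ 2 and 1.18% in CD45+ 3, against 2.77% in hepatocyte nuclei, 0.84% in CD45+ 1 and 0.44% in Kupffer nuclei. Each of the 14 had UMIs in both clusters, at 24.6% to 87.6% of the hepatocyte level in CD45+ 2 and 22.6% to 97.9% in CD45+ 3. Relative to hepatocytes of the same mouse, the share in lymphocytes was 37.0%, 33.8% and 54.2% in WT mice 1 to 3 and 64.8%, 46.6% and 69.5% in HNKO mice 1 to 3. All of these are shares of summed UMIs, in which large nuclei weigh more. The median per nucleus was lower, at 0.684% in CD45+ 2 and 0.969% in CD45+ 3, against 2.63% in hepatocyte nuclei. Per mouse it was 0.449%, 0.461% and 1.91% in WT lymphocytes and 1.34%, 0.889% and 1.00% in HNKO lymphocytes, so that the genotypes overlapped. Whether this RNA was free in the droplets or came from hepatocyte nuclei was not tested. Of 17 macrophage and myeloid markers, 9 had a UMI in CD45+ 2 and 6 in CD45+ 3, and their summed level was 133 and 207 CPM against 169 CPM in all other nuclei and 6843 CPM in Kupffer nuclei. Cd5l, Timd4, Marco and Csf1r were at 0 in both clusters, and Clec4f had 4 UMIs and Vsig4 3.33 UMIs in CD45+ 2. Cybb, a subunit of the phagocyte oxidase, was at least 2-fold above other nuclei in both clusters, at 30.4 and 138 CPM against 7.15 CPM, and Lyz2, a lysozyme, in CD45+ 3 from 2 UMIs. Of 7 endothelial markers only Pecam1, which leukocytes also express, was at least 2-fold higher than elsewhere, at 137 and 437 CPM. Of 6 stellate markers 4 were at 0 in each cluster, and no cholangiocyte marker was 2-fold higher.

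**Figure D5:**
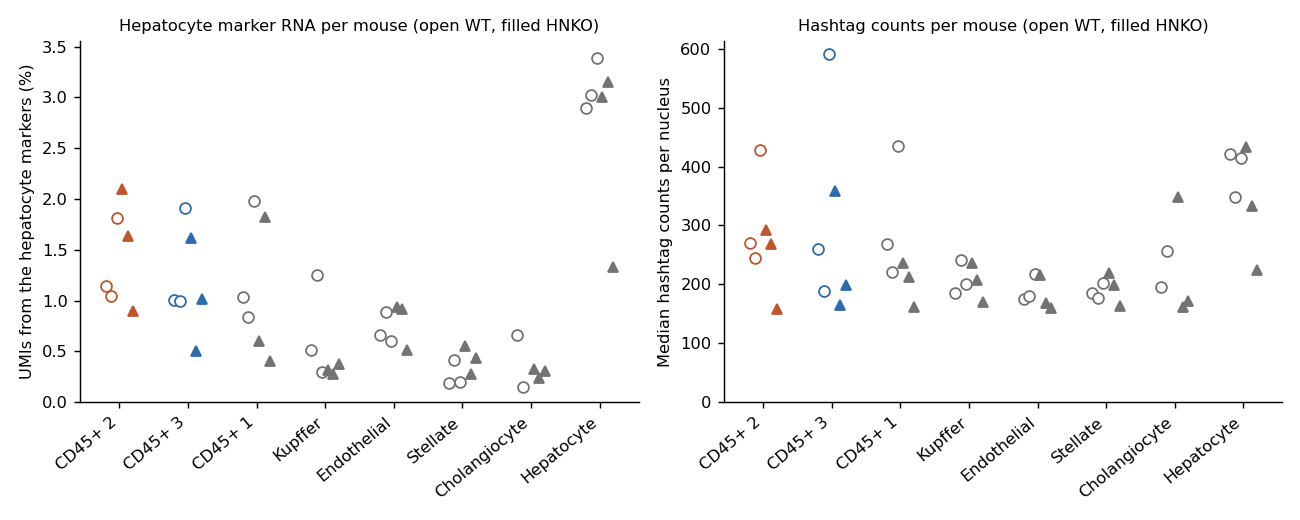
Left, the percentage of UMIs from 14 hepatocyte markers, and right, the median hashtag count per nucleus, in each cell type (horizontal) and mouse (open circles WT, filled triangles HNKO). Lymphocyte nuclei lie between hepatocytes and most other nonparenchymal nuclei in hepatocyte marker RNA, and hepatocytes of HNKO mouse 3 lie at 1.33%.

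Nampt, the targeted gene, was 86.1 CPM in CD45+ 2, 115 CPM in CD45+ 3 and 102 CPM in all other nuclei, with 17 UMIs in 14.9% of CD45+ 2 nuclei and 10 UMIs in 28% of CD45+ 3 nuclei. In CD45+ 2 it was at 0 in the 3 WT mice (13 nuclei) and at 101, 128 and 102 CPM in the 3 HNKO mice. In CD45+ 3 it was 57.2, 296 and 502 CPM in WT mice and 72.5, 147 and 51.0 CPM in HNKO mice, from 1 to 4 UMIs each. Hepatocyte nuclei held 84.8, 105 and 96.9 CPM in WT mice and 84.1, 148 and 90.8 CPM in HNKO mice, so that the genotypes overlapped. The values are UMI counts of 3′ tags over the whole gene, and the deleted stretch is not given in the sources used here, so that Nampt counts do not check the genotype labels. Of 8 genes of NAD salvage and consumption, 1 was 2-fold higher in CD45+ 2 and 2 in CD45+ 3 than elsewhere. The shares of all genes tested were 5.94% and 9.05%, and 1 of the 8 was 2-fold lower in CD45+ 3. Median log2 ratios of the list were -0.12 and 0.50. Cd38, an NAD-consuming surface enzyme, was 264 CPM in CD45+ 3, 50.6 CPM in CD45+ 2 and 728 CPM in Kupffer nuclei.

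Lymphocyte shares were compared between genotypes with the mouse as the replicate. The mouse of a nucleus rests on the authors' hashtag call, and the own hashtag gave as little as 13.0% of a lymphocyte nucleus's hashtag counts. Errors of that call were not tested. Both clusters together made up 1.59%, 1.41% and 0.414% of nuclei in WT mice 1 to 3 and 1.51%, 1.26% and 1.91% in HNKO mice 1 to 3. The means were 1.14% ± 0.634 (SD, n = 3) and 1.56% ± 0.325 (SD, n = 3), and the genotypes overlapped (exact permutation test, two-sided, p = 0.5, adjusted over 3 shares 0.75). CD45+ 2 made up 0.795%, 0.771% and 0.276% in WT mice and 1.03%, 0.947% and 1.33% in HNKO mice, which did not overlap. The difference of 0.491 percentage points had an exact permutation p = 0.1, the smallest that 3 mice against 3 allow, and 0.3 after adjustment. CD45+ 3 made up 0.525% ± 0.344 (SD, n = 3) in WT and 0.453% ± 0.129 (SD, n = 3) in HNKO mice (exact permutation p = 0.8). Over all nuclei its genotypes overlapped.

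The direction for CD45+ 2, and the size of the difference for CD45+ 3, depended on the denominator. Of nonhepatocyte nuclei, which numbered 65 to 67 per WT mouse and 131 to 251 per HNKO mouse, the HNKO share was lower by a mean difference of -0.498 percentage points (exact permutation p = 0.8). Of the nuclei in the 3 CD45+ clusters and the Kupffer cluster, both lymphocyte clusters made up 47.6%, 50% and 27.3% in WT and 16.5%, 33.3% and 28.6% in HNKO mice, a difference of -15.5 percentage points (exact permutation p = 0.3). For CD45+ 3 alone the difference was -11.2 percentage points of these nuclei (exact permutation p = 0.1, the smallest possible) and -3.13 percentage points of nonhepatocyte nuclei (exact permutation p = 0.4). Within the lymphocytes, CD45+ 2 was 50%, 54.5% and 66.7% in WT mice and 68.8%, 75% and 70% in HNKO mice. The groups did not overlap, and the difference of 14.2 percentage points had an exact permutation p = 0.1, again the smallest possible. The WT value of 66.7% came from 3 nuclei, with a 95% exact binomial interval of 9.43% to 99.2%.

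Genotype effects on genes were tested on the UMI sums of both clusters per mouse in the 2 WT and 3 HNKO mice with at least 5 lymphocyte nuclei. Of 1196 genes tested with edgeR's quasi-likelihood test, none had an FDR below 0.05, which is 0% of genes tested. At an unadjusted p under 0.05 there were 149, of which 82 were higher in HNKO, and DESeq2 gave 79 at that level and none after adjustment. The smallest FDR was 0.33. In simulated data of this design the test recovered 80.6% of genes changed 4-fold among 1338 genes tested. The simulation gave every gene the same dispersion, and its mice did not differ in cluster proportions or hepatocyte RNA. The recovered share is therefore not the power of the test in the real data, which was not measured.

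The 5 genes with the smallest p had no call and are given as values. Abca6, an ABC transporter, was 84.1 and 70.9 CPM in WT mice 1 and 2 and 497, 373 and 434 CPM in HNKO mice 1 to 3, and its hepatocyte level was 540 to 743 CPM in all 6 mice. Robo1, a receptor of guidance cues, was 28.0 and 70.9 CPM against 532, 351 and 243 CPM. Hepatocytes held 253, 363 and 341 CPM of Robo1 in WT mice 1 to 3 and 629, 327 and 639 CPM in HNKO mice 1 to 3. Hepatocyte marker RNA of lymphocytes relative to hepatocytes, given above, was also higher in these HNKO mice than in WT mice 1 and 2. Among HNKO mice, Robo1 of the lymphocytes was lowest in mouse 3, where this relative share was highest. As a share of lymphocyte UMIs, the markers were 1.07% and 1.02% in WT mice 1 and 2. They were 1.95%, 1.47% and 0.928% in HNKO mice 1 to 3. The part of hepatocyte RNA in both genes was not tested. Ebf1 was 3898 and 1879 CPM against 601, 548 and 1302 CPM. Fry, a scaffold protein, was 308 and 461 CPM against 80.9, 87.7 and 76.6 CPM. Bcl11a was 393 and 389.9 CPM against 57.8, 43.8 and 128 CPM. Summed over the mice, Ebf1, Fry and Bcl11a had more UMIs in CD45+ 3 than in CD45+ 2 nuclei. How far the proportion of the clusters entered their genotype differences was not tested. Within CD45+ 3, Ebf1 overlapped between genotypes (2009 to 7956 CPM and 1884 to 5197 CPM), as did Fry (0 to 974 CPM and 254 to 587 CPM). Bcl11a did not overlap there, at 801, 813 and 502 CPM in WT mice 1 to 3 and 181, 293 and 408 CPM in HNKO mice 1 to 3, from 1 to 14 UMIs per mouse. In CD45+ 2 alone 990 genes and in CD45+ 3 alone 338 genes were tested with edgeR, with no call in either (122 and 12 at an unadjusted p under 0.05).

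Hashtag counts are not part of the RNA on which the nuclei were clustered. The median count per lymphocyte nucleus was 266, 189 and 591 in WT mice 1 to 3 and 328, 253 and 182 in HNKO mice 1 to 3. All other nuclei of the same mice stood at 406, 340 and 404 and at 386, 317 and 212. Lymphocytes were lower in 5 of 6 mice, by a mean log2 ratio of -0.28 ± 0.47 (SD, n = 6, exact sign-flip permutation test, two-sided, p = 0.188, adjusted 0.188), which did not exceed the spread between mice. WT mouse 3, with 3 nuclei, was the exception. Against nonhepatocyte nuclei alone the lymphocytes were higher, by a mean log2 ratio of 0.51 (exact sign-flip p = 0.0312, the smallest possible with 6 mice). The percentage of hashtag counts from the own hashtag was lower in 5 of 6 mice by a mean of -13.3 ± 14.3 percentage points (SD, n = 6, exact sign-flip p = 0.0938, adjusted 0.188). The median own-hashtag share of lymphocyte nuclei was 54.1%, 34.3% and 82.2% in WT mice 1 to 3 and 73.9%, 45.5% and 36.8% in HNKO mice 1 to 3. Against nonhepatocyte nuclei of the same mouse it was higher, by a mean of 9.91 percentage points (exact sign-flip p = 0.0625).

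The share of spliced UMIs per nucleus was compared as a description. Its median was 29.6%, 29.0% and 33.5% in lymphocytes of WT mice 1 to 3 and 24.2%, 29.7% and 24.2% in those of HNKO mice 1 to 3. All other nuclei of the same mice stood at 25.6%, 25.0%, 23.9%, 21.7%, 23.6% and 23.1%, so that the lymphocytes were higher in each mouse. Over all mice the medians were 26.4% in CD45+ 2, 28.4% in CD45+ 3, 24.1% in hepatocytes and 18.5% in stellate nuclei.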

How the data were processed

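Liver nuclei were sorted (4250 per mouse, per the labels), pooled, and sequenced as 2 RNA pools and 2 hashtag pools with 10x Genomics 3′ chemistry version 3.1. The authors generated reads with Cell Ranger 5.0.1, mapped them with alevin on GRCm38 (GENCODE M25 genes). Estimated counts of UMIs per gene and nucleus were deposited, of which 10.1% were not whole within 0.001. Unspliced RNA is included. The deposited SCTransform matrix is a score predicted at a common depth and was used as an alternative only. The deposited hashtag counts were 101 to 1244 per nucleus. The authors called the mouse from the hashtags, removed negatives and multiplets between mice, and assigned cluster names with Seurat. No doublet caller was run here, so that doublets within a mouse remain. All 5193 barcodes were unique, and the table does not show the pool of a nucleus. Of 54464 gene rows, 22210 were Ensembl identifiers, 22004 of them matched to symbols. Coordinates are from GENCODE M21 (GRCm38).

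Counts were summed per cluster and mouse. Shares and hashtags were tested by exact permutation. Genotype was tested on rounded sums with edgeR 4.0.16 (filterByExpr, TMM, quasi-likelihood F test, Benjamini-Hochberg, threshold 0.05) in R 4.3.3, checked on simulated counts, with DESeq2 1.42.0 as an alternative. P-values measure the spread between the mice. Named genes were the markers and Nampt, the 12 with the largest log2 ratio per cluster and the 10 in each direction between the clusters (a UMI in at least 30% of nuclei and in at least 3 mice), the 5 genes with the smallest genotype p, and the members of 21 lists. Some genes that this rule names are not reported here. Members and lists were chosen with earlier results of these data known. Single genes such as Grap2 or Gm15987 were picked for the text from these after their values were seen. Intervals and floors of 3 counts per cluster cover counting error only. Python 3.11.15, numpy 2.4.6, scipy 1.17.1, pandas 2.3.3 and matplotlib 3.10.9 were used.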

Additional observations from a re-analysis of the deposited data

How the results depend on the processing

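No paired analysis was possible because every pool holds nuclei of all 6 mice, so that the pool numbers pair no mice. Leaving out each mouse gave differences in share of 0.0564 to 0.644 percentage points for both clusters, 0.323 to 0.582 for CD45+ 2, -0.266 to 0.0623 for CD45+ 3 (positive, 0.0623, without WT mouse 1) and 10.6 to 19.0 for the T-like share. No such difference could pass the threshold in this design. With nonhepatocyte nuclei as the denominator the differences were -3.63 percentage points for both clusters and -0.498 for CD45+ 2, and with CD45+ and Kupffer nuclei -15.5 and -4.31, all opposite in sign to those over all nuclei. The larger number of nonparenchymal nuclei in the HNKO mice enters these denominators.

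Hashtag log2 ratios without each mouse were -0.449 to -0.170 and own-hashtag differences -17.3 to -9.11 percentage points. Against nonhepatocyte nuclei they were 0.514 (exact sign-flip p = 0.0312) and 9.91 percentage points (p = 0.0625 by the exact test). With means in place of medians the log2 ratio was -0.213 (exact sign-flip p = 0.0625). The own-hashtag difference was then -12.8 percentage points (exact sign-flip p = 0.0312, the smallest possible). Unlike the main result, the p-values of these alternatives were not adjusted over both measures, and no call is made from them.

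The genotype test called 0 genes without each of its 5 mice in turn and under every other alternative except the one without a count filter, where 12936 genes were tested and 2 were called, Fmo5 and Shroom3. The HNKO UMIs were 203, 33 and 19 for Fmo5 (WT mice 1 and 2, 10 and 7) and 97, 10 and 94 for Shroom3 (9 and 2). These UMIs are not scaled to the lymphocyte sums, which were 86743, 45804 and 78594 in HNKO mice 1 to 3. The sums of WT mice 1 and 2 were 35832 and 28387. Relative to the sums, Fmo5 in HNKO mouse 3 and Shroom3 in HNKO mouse 2 lay below WT mouse 1. WT mouse 3, outside this fit, had 10 and 0 UMIs of a sum of 9147. Without either WT mouse the other WT mouse stood alone, so the HNKO mice gave the spread and the lone mouse is assumed to vary like them. WT mouse 3 entered only with the minimum of 3 nuclei.

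Counts of genes past 2-fold depended on the pseudocount. With 1 CPM they were 3521 higher and 4315 lower for CD45+ 2, 3593 and 6657 for CD45+ 3, and 4993 and 3227 between the clusters. With 50 CPM they were 401 and 94, 527 and 361, and 300 and 272. The main counts were 1288 and 667, 1963 and 1794, and 2426 and 2013. SCTransform values gave 1074 lower for CD45+ 2. Without each mouse the 6 counts were 1270 to 1630, 671 to 996, 1967 to 2502, 1809 to 2495, 2306 to 2700 and 1882 to 2347. Of 44 ratios of leading genes, 30 moved with a pseudocount of 1, 35 with 50 and 1 without HNKO mouse 3. They were chosen for their size, so that their sign is no sign of stability.

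Depth limits what is shown. A cluster of 25 nuclei and 87038 UMIs cannot place a gene below 34.5 CPM, and WT mouse 3 rests on 3 nuclei.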
